A study of Mus musculus with 6 samples.

Results

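The genes described here are 37 antioxidant, glutathione and thioredoxin genes, chosen by name for their function, with no measured value in the rule, although earlier results of these data were known when they were chosen. All 37 are among the 24419 gene symbols of the deposited table, and 36 of them were abundant enough to be tested. They were measured by RNA-seq in 6 libraries of sorted cells from the peri-infarct cerebral cortex of wild type (C57BL/6N) male mice, 3 libraries from mice given vehicle and 3 from mice given 15-HETrE, a hydroxylated fatty acid. Every mouse, vehicle or treated, had undergone transient middle cerebral artery occlusion for 60 min, so no group was free of ischemia. The lipid (600 ng) or vehicle was injected intravenously in 150 µL of PBS at 24, 48 and 72 h, and cells were collected on day 4 by the gate Thy1+/ACSA2-/CD31-/CD45-/O4-. Neither the age of the mice nor the number of animals behind a library is stated, so p-values measure the spread among libraries, which may be technical.

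Nfe2l2 encodes NRF2, a transcription factor that KEAP1 holds in the cytoplasm and marks for degradation until oxidants or electrophiles modify KEAP1. NRF2 then binds antioxidant response elements with a small MAF partner, where BACH1 acts as the competing repressor. Its targets make and recycle glutathione, supply the thioredoxin and peroxiredoxin cycles that reduce peroxides, and make NADPH. In the brain this programme is known to be stronger in astrocytes than in neurons, and reperfusion after ischemia is a classic source of the oxidants it removes.

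Libraries held 5405245 to 22558400 reads assigned to genes, and the vehicle library named combined was the shallowest. Column names number vehicle 1, vehicle 2 and 15-HETrE 1, which share a prefix. A library of each group is named combined, and the remaining 15-HETrE library, with its own prefix, is called unnumbered here. Checked against markers of the labelled cell type, the mean level of 10 pan-neuronal genes lay at 6.81 to 7.60 in vehicle and 7.54 to 8.23 in 15-HETrE libraries (mean of log2(CPM + 1)). The 10 oligodendrocyte genes lay at 9.33 to 9.91 and 9.29 to 10.44, although the gate leaves out O4+ cells. The 10 fibroblast genes lay at 8.73, 8.52 and 3.90 in vehicle 1, 2 and combined, and at 4.88, 6.93 and 3.98 in 15-HETrE 1, unnumbered and combined. In such bulk libraries fewer cells of a type and less RNA per cell cannot be told apart.

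The antioxidant response element was searched as TGACNNNGC on both strands in RefSeq promoter windows (GRCm38.p6) of 250 bases before to 50 after each start. Of the 37 genes, 31 had a window; Hmox1, Gclc, Gsr, Gsta4, Prdx6 and Sod3 had no entry. The letters occurred in 10 of the 31 genes (32.3%), against 3781 of all 27025 genes in the table (14.0%). These were Nfe2l2, Gclm, Gstm5, Mgst1, Txnrd1, Srxn1, Prdx1, Sod1, Pgd and Me1. A match is a description of the letters and not a binding site. Some of the stretches upstream of the start are shown because they carry the element in the regulator itself and in a gene each of glutathione synthesis, glutathione transfer, the thioredoxin cycle and the peroxiredoxins. They read 5′ to 3′ on the gene's strand, with the element in capitals; in Gclm, Txnrd1 and Prdx1 it lies on the opposite strand.
Nfe2l2, chr2:75704875-75704913, minus strand: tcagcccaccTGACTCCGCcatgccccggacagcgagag
Gclm, chr3:122245403-122245451, plus strand: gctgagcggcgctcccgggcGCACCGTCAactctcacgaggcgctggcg
Gstm5, chr3:107895792-107895840, plus strand: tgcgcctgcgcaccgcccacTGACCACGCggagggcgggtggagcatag
Txnrd1, chr10:82859094-82859142, plus strand: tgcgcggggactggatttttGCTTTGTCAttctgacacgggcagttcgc
Prdx1, chr4:116685446-116685494, plus strand: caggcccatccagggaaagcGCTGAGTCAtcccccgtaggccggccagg
The element starts 240 bases upstream of the start in Nfe2l2, 134 in Gclm, 42 in Gstm5, 92 in Txnrd1 and 133 in Prdx1. Txnrd1 has 3 windows in the table, and the element was in the second of them by position.

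The comparison asked which of these transcripts differ between 15-HETrE and vehicle libraries. Most stood lower in 15-HETrE: 24 of the 36 tested genes had a fold change under 0 and 12 over 0, with a median log2 fold change of -0.28, against 0.02 over all 14523 genes tested. None of the 36 passed at an adjusted p of 0.05 (limma; smallest adjusted p 0.394), where 0 of all genes (0%) passed; edgeR's quasi-likelihood test and DESeq2 also called none of the 36, where they called 0 (0%) and 165 (1.14%) of all genes. At an unadjusted p under 0.05 edgeR had 10 of the 36, against 8.48% of all genes, and DESeq2 11, against 10.7%. At an unadjusted p under 0.05 stood 8 of the 36 members, 22.2% against 9.50% of all genes; 7 were lower, 19.4% of those tested, against 5.23% of all genes, and 1 was higher, against 4.27%. For 10 members that were lower, no vehicle library overlapped the 15-HETrE libraries (27.8%, against 8.32% of all genes), and the same held for 1 that was higher (2.78%, against 6.84%). The median was -0.42 without vehicle 2 and -0.43 without 15-HETrE combined. Without both libraries named combined, 28 of the 36 were lower and 8 higher, with a median of -0.38. In that setting 1 member, Gpx8, was called (limma), against 204 calls (1.40%) over all genes. The median and the share lower over all genes were not computed for these alternatives, so the members have no background there.

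**Figure D1:**
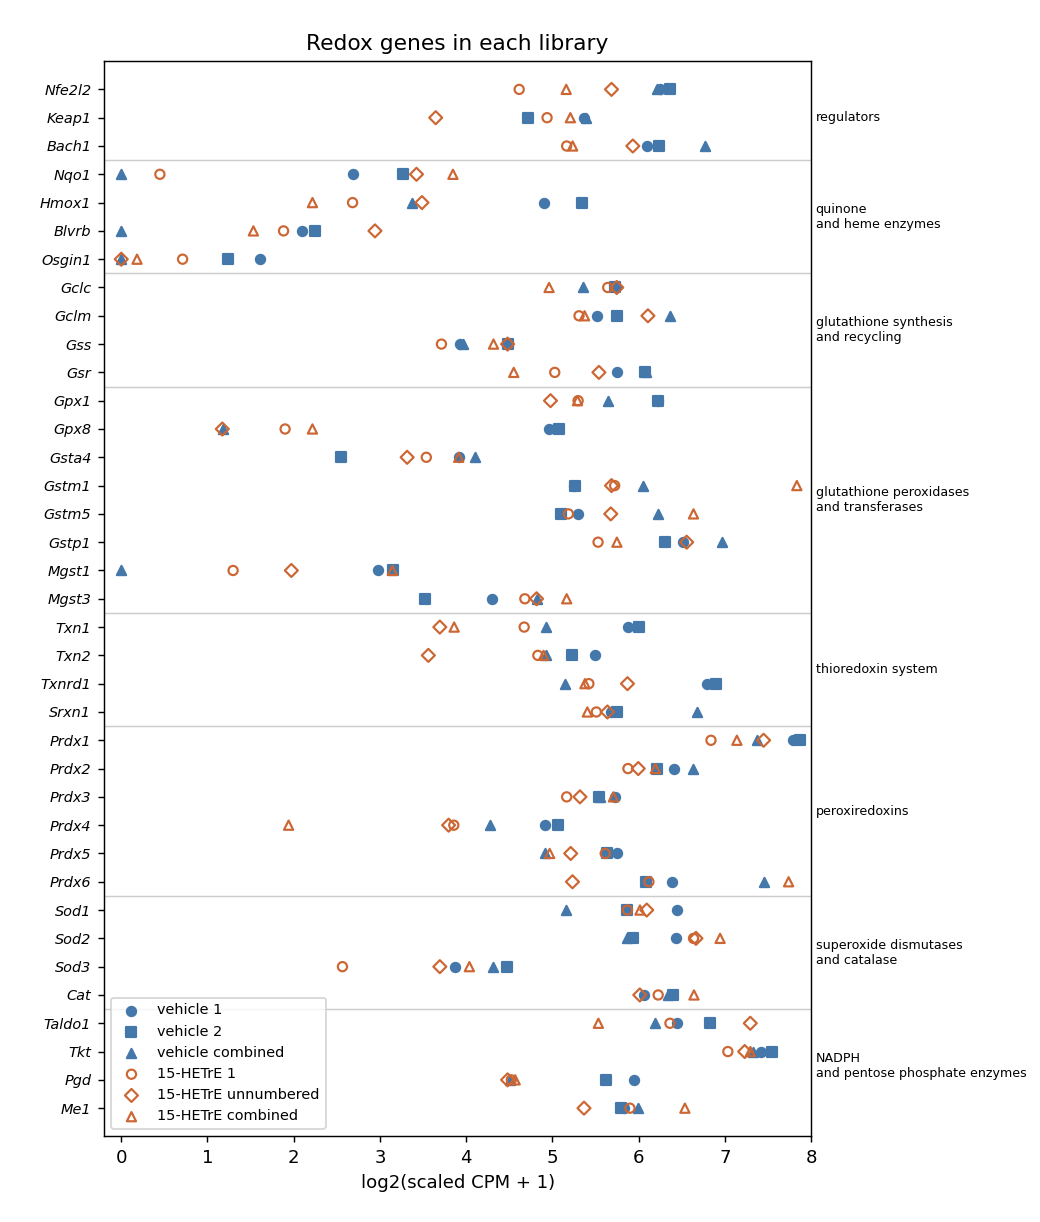
Level of each of the 37 genes in each of the 6 libraries, as log2(scaled CPM + 1), grouped by role; filled blue symbols are vehicle and open orange symbols 15-HETrE libraries. Nfe2l2, Bach1, Gsr, Gpx1 and Txn1 show all vehicle libraries to the right of all 15-HETrE libraries, and Sod2 the opposite order.

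Among the regulators, Nfe2l2 (chromosome 2, 75675513 to 75704641, GRCm38) had 74.9, 81.5 and 73.2 CPM in vehicle 1, 2 and combined. In 15-HETrE 1, unnumbered and combined it had 23.5, 50.4 and 34.7 CPM. All 3 vehicle libraries lay close together and above the highest 15-HETrE library. The means were 76.6 ± 4.41 and 36.2 ± 13.5 CPM (SD, n = 3 per group), and the log2 fold change was -1.12 (SE 0.33, unadjusted p 0.00617, adjusted p 0.402, limma). Bach1, the repressor that competes for the same elements (chromosome 16, 87698945 to 87733346), had 67.3, 74.4 and 108 CPM in vehicle, against 34.9, 60.0 and 36.6 CPM in 15-HETrE libraries. The groups again did not overlap, and its log2 fold change was -0.92 (SE 0.32, adjusted p 0.460, limma). The activator and the repressor transcripts were thus both lower, neither past the threshold. Keap1 ranged from 25.2 to 40.8 CPM in vehicle and from 11.5 to 35.95 CPM in 15-HETrE libraries, with 15-HETrE unnumbered alone below all the others. Its log2 fold change was -0.56, with an interval (95%) of -1.59 to 0.47, and it was -0.08 without 15-HETrE unnumbered and -0.86 without 15-HETrE combined.

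Hmox1, heme oxygenase 1, which breaks down heme and is a target of both NRF2 and BACH1 (chromosome 8, 75093621 to 75100589), had 28.8, 39.5 and 9.35 CPM in vehicle libraries. In 15-HETrE libraries it had 5.42, 10.2 and 3.65 CPM. Vehicle 1 and vehicle 2 stood far above the rest, while vehicle combined lay below 15-HETrE unnumbered. The log2 fold change was -1.74 (SE 0.63, adjusted p 0.462, limma). Nqo1, the quinone reductase, had 5.42, 8.64 and 0 CPM in vehicle, against 0.364, 9.73 and 13.4 CPM in 15-HETrE libraries. The 0 in vehicle combined allows up to 0.540 CPM (3 counts, counting error only). Its libraries overlapped between groups, and 15-HETrE unnumbered and combined lay above every vehicle library, with a fold change interval of -1.84 to 3.01. Blvrb, biliverdin reductase B, had at most 6.68 CPM, and Osgin1, an oxidative stress-induced growth inhibitor, had at most 2.06 CPM and fell under the filter for testing. Nqo1, Blvrb, Osgin1 and Mgst1 all had 0 reads in vehicle combined, the library with the fewest reads.

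In glutathione synthesis and recycling, the recycling enzyme stood apart. Gsr, glutathione reductase (chromosome 8, 33652523 to 33698163), had 52.8, 66.3 and 66.9 CPM in vehicle, against 31.6, 45.5 and 22.4 CPM in 15-HETrE libraries. The groups did not overlap, and the means were 62.0 ± 7.99 and 33.2 ± 11.6 CPM (SD, n = 3 per group). The log2 fold change was -0.93 (SE 0.33, adjusted p 0.461, limma). Of the synthesis enzymes, Gclm, the modifier subunit of glutamate-cysteine ligase, had 44.9, 52.8 and 81.1 CPM in vehicle, against 38.6, 67.9 and 40.4 CPM in 15-HETrE libraries. The groups overlapped, as they did for the catalytic subunit Gclc and for glutathione synthetase Gss. The log2 fold changes of Gclm, Gclc and Gss were -0.28, -0.15 and 0.05, with intervals of -1.04 to 0.48, -0.87 to 0.56 and -0.92 to 1.02.

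Among enzymes that use glutathione, Gpx1, the main cytosolic glutathione peroxidase (chromosome 9, 108338903 to 108340343), had 73.8, 73.7 and 49.1 CPM in vehicle libraries. It had 38.3, 30.5 and 38.1 CPM in 15-HETrE libraries, all below the lowest vehicle library. The log2 fold change was -0.84 (SE 0.30, adjusted p 0.460, limma). Gstm1, a glutathione transferase abundant in astrocytes, had 37.02, 37.4 and 65.1 CPM in vehicle, against 51.8, 50.4 and 227 CPM in 15-HETrE libraries. Only 15-HETrE combined stood far above the others, and without it the log2 fold change was 0.18 instead of 0.89. Beside it, the mean level of 10 astrocyte markers was 5.37, 4.86 and 7.71 in vehicle and 6.10, 5.69 and 8.63 in 15-HETrE libraries, highest in the same library, although the gate for ACSA2- cells is meant to leave astrocytes out; the part of these cells in the level of Gstm1 was not tested. Gstp1, the pi class transferase, had 90.6, 78.1 and 124 CPM in vehicle, against 45.2, 93.1 and 52.7 CPM in 15-HETrE libraries. It overlapped through 15-HETrE unnumbered, and its log2 fold change was -0.65. The transferases Gstm5, Gsta4, Mgst1 and Mgst3 had log2 fold changes of 0.29, 0.07, 0.10 and 0.67, and their libraries overlapped.

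Gpx8, a peroxidase of the endoplasmic reticulum, is given in full because of its spread, a choice made after its values were seen. It had 30.1, 32.8 and 1.26 CPM in vehicle, against 2.73, 1.25 and 3.65 CPM in 15-HETrE libraries. Vehicle 1 and vehicle 2 were high, and vehicle combined, with 7 reads, was as low as the treated libraries. The log2 fold change was -1.97, the lowest of the 36, with an adjusted p of 0.574 (limma). Without vehicle combined it was -3.25 with an adjusted p of 0.0371 (limma), a call that rests on leaving out that library, when 0.757% of all genes were called. Of the 10 fibroblast markers, 8 were also higher in vehicle 1 and 2 than in vehicle combined; Pdgfra, which precursor cells of oligodendrocytes carry too, was highest in vehicle combined, and Dpt was at 0 in all vehicle libraries. The summed signal of the 9 genes without Pdgfra was 12073, 9505 and 223 CPM in vehicle 1, 2 and combined, against 323, 1895 and 360 CPM in 15-HETrE 1, unnumbered and combined. In 15-HETrE unnumbered, the treated library with the highest fibroblast sum, Gpx8 was at its lowest, 1.25 CPM. The part of fibroblasts in the level of Gpx8 was not tested.

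**Figure D2:**
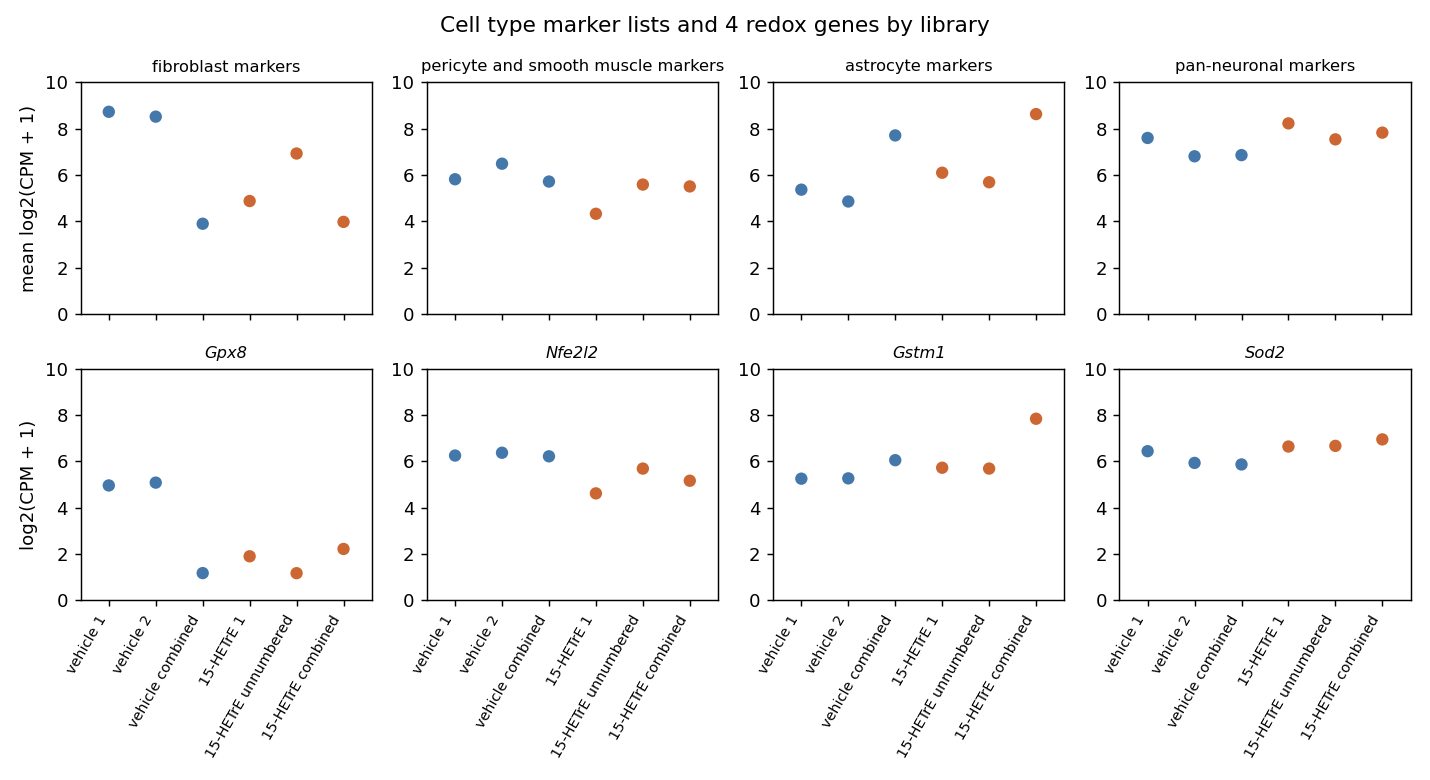
Mean level of 4 cell type marker lists (top) and level of 4 redox genes (bottom) in each library, as log2(CPM + 1); blue is vehicle and orange 15-HETrE. Gpx8 and the fibroblast markers are both high in vehicle 1 and 2 and low in vehicle combined. They part in 15-HETrE unnumbered, where the fibroblast markers are the highest of the treated libraries and Gpx8 is at its lowest. The 3 vehicle libraries of Nfe2l2 lie together.

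The thioredoxin system was lower in each of its 4 genes, and 3 did not overlap between groups, beside 49.0% of all genes lower and 8.32% lower without overlap. Txn1, cytosolic thioredoxin (chromosome 4, 57943373 to 57956411), was the member with the smallest p. It had 57.7, 63.0 and 29.3 CPM in vehicle, against 24.5, 11.9 and 13.5 CPM in 15-HETrE libraries. The means were 50.0 ± 18.1 and 16.6 ± 6.84 CPM (SD, n = 3 per group), and the log2 fold change was -1.52 (SE 0.43, unadjusted p 0.00535, adjusted p 0.394, limma). DESeq2 on the recovered reads gave Txn1 an adjusted p of 0.0652, the nearest any member came in that tool; the adjusted p of Txn1 over its alternatives was 0.00367 to 0.912. Txn2, the mitochondrial thioredoxin, had 44.2, 36.3 and 29.3 CPM in vehicle, against 27.5, 10.8 and 28.8 CPM in 15-HETrE libraries. Its groups were separated only by the narrow step from vehicle combined to 15-HETrE combined, which rest on 163 and 213 reads. Srxn1, sulfiredoxin, which restores overoxidised peroxiredoxins, had 50.3, 52.7 and 101 CPM in vehicle, against 44.5, 48.8 and 41.4 CPM in 15-HETrE libraries. It too was separated by a narrow step, and only vehicle combined was far above the rest. Txnrd1, thioredoxin reductase 1, had 110, 118 and 34.5 CPM in vehicle, against 41.9, 57.5 and 40.6 CPM in 15-HETrE libraries. Vehicle combined was its lowest library, so the groups overlapped, and the log2 fold changes of Txn2, Srxn1 and Txnrd1 were -0.78, -0.52 and -0.72 with adjusted p of 0.610, 0.643 and 0.633 (limma). Single libraries moved these: Txn2 was -0.35 without 15-HETrE unnumbered, Srxn1 -0.20 without vehicle combined, and Txnrd1 -1.29 without vehicle combined, -0.47 without vehicle 1 and -0.42 without vehicle 2.

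All 6 peroxiredoxins, which reduce peroxides, had fold changes under 0, with a median of -0.34, beside 49% of all genes lower. Prdx1 was the most abundant of them per exon length, at 57.2 CPM per kb over all libraries. It had 221, 233 and 165 CPM in vehicle, against 113, 174 and 140 CPM in 15-HETrE libraries, with vehicle combined just below 15-HETrE unnumbered. Prdx2 had 83.7, 73.3 and 98.2 CPM in vehicle, against 57.7, 62.8 and 72.2 CPM in 15-HETrE libraries, without overlap; its exons share 173 bases with Junb and 177 with Rnaseh2a, both on the opposite strand. Their log2 fold changes were -0.54 and -0.40 with intervals of -1.11 to 0.04 and -0.97 to 0.18. Prdx4, the peroxiredoxin of the endoplasmic reticulum (chromosome X, 155323918 to 155340754), had 29.0, 32.5 and 18.3 CPM in vehicle, against 13.5, 12.9 and 2.84 CPM in 15-HETrE libraries. The groups did not overlap, and 15-HETrE combined, with 21 reads, was the lowest. Its log2 fold change was -1.55 (SE 0.59, adjusted p 0.482, limma), and -0.92 without 15-HETrE combined. Prdx6 had 82.4, 66.7 and 175 CPM in vehicle, against 68.5, 36.6 and 212 CPM in 15-HETrE libraries, high in both libraries named combined, where the astrocyte markers were also highest; the part of astrocytes in its level was not tested. The mitochondrial Prdx3 and the widely distributed Prdx5 had log2 fold changes of -0.21 and -0.17, and their groups overlapped.

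The superoxide dismutases and catalase did not share this direction. Sod2, the mitochondrial manganese enzyme (chromosome 17, 13006846 to 13040063), was the only member higher without overlap. It had 85.5, 59.9 and 57.2 CPM in vehicle, against 98.4, 100 and 122 CPM in 15-HETrE libraries, with means of 67.5 ± 15.6 and 107 ± 13.1 CPM (SD, n = 3 per group). The log2 fold change was 0.67 (SE 0.27, unadjusted p 0.0294, adjusted p 0.489, limma). Cat, the peroxisomal catalase, had 66.0, 83.2 and 80.0 CPM in vehicle, against 73.8, 63.6 and 98.8 CPM in 15-HETrE libraries. These intermingled, with a fold change of 0.03 and an interval of -0.58 to 0.63. Cytosolic Sod1 had a log2 fold change of 0.17 (interval -0.60 to 0.94) and extracellular Sod3 one of -0.79 (interval -1.96 to 0.38), which was -0.35 without 15-HETrE 1.

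**Figure D3:**
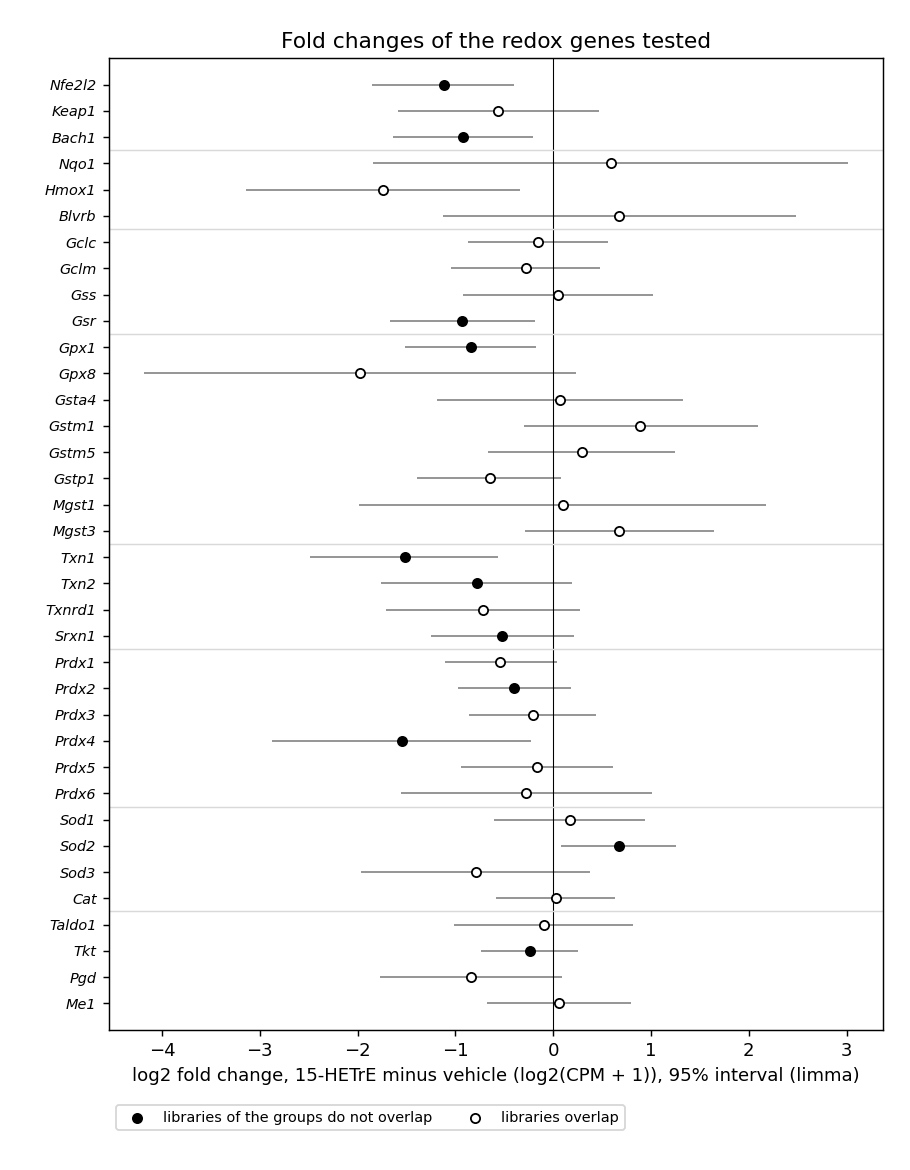
Log2 fold change of the 36 tested genes, 15-HETrE minus vehicle on log2(CPM + 1), with the 95% interval from limma; filled points mark genes whose libraries do not overlap between groups. The 4 thioredoxin genes and the 6 peroxiredoxins lie left of 0, and Sod2 is the filled point to the right.

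Of the NADPH and pentose phosphate enzymes, Tkt, transketolase, had 169, 186 and 160 CPM in vehicle, against 130, 149 and 156 CPM in 15-HETrE libraries. The groups did not overlap, yet the difference was small, a log2 fold change of -0.24 (interval -0.74 to 0.25). Taldo1, transaldolase, had 86.2, 113 and 71.8 CPM in vehicle, against 81.3, 156 and 45.3 CPM in 15-HETrE libraries, whose highest and lowest values were both treated. Pgd, the phosphogluconate dehydrogenase that yields NADPH, ranged from 21.8 to 60.6 CPM in vehicle and only from 21.3 to 22.7 CPM in 15-HETrE libraries. Vehicle combined lay among the treated libraries, and the log2 fold change was -0.84 (adjusted p 0.572, limma), or -0.54 without vehicle 1. Me1, malic enzyme 1, had a log2 fold change of 0.06.

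Levels per exon length ranged widely across the 37 genes, and their order differed between groups. In vehicle libraries the highest means were Prdx1 at 67.7, Gstp1 at 63.0 and Txn1 at 47.6 CPM per kb. In 15-HETrE libraries they were Gstm1 at 74.5, through 15-HETrE combined, Gstm5 at 48.0 and Prdx1 at 46.8 CPM per kb. The lowest over all libraries were Osgin1 at 0.260, Blvrb at 1.09 and Mgst1 at 2.23 CPM per kb. Nfe2l2 stood at 14.9 and Keap1 at 6.52 CPM per kb over all libraries. Gpx1 and Txn1 were close in vehicle libraries, Gpx1 at 45.5 CPM per kb, and stood at 24.7 and 15.8 CPM per kb in 15-HETrE libraries.

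Differences within sets of column names varied from member to member. Between 15-HETrE 1 and the mean of vehicle 1 and 2, 31 of 36 members were lower (86.1%, against 49.7% of all genes), with a median of -0.46. Between the combined libraries 19 of 36 were lower (52.8%, against 45.0%), with a median of -0.03 against 0.08 over all genes, so the direction of the list was not seen in that pair. Beside these, the fibroblast markers differed by -3.75 in the first set and by 0.08 in the combined pair. Nfe2l2 differed by -1.69 in the first set and by -1.05 in the combined pair, Bach1 by -1.0 and -1.54, Hmox1 by -2.44 and -1.15. Gsr differed by -0.88 and -1.53, Txn1 by -1.27 and -1.06, Prdx4 by -1.13 and -2.33, and Sod2 by 0.45 and 1.08. The remaining members without overlap differed less evenly or by less. Gpx1 differed by -0.93 and -0.36, Prdx2 by -0.435 and -0.439, and Srxn1 by -0.21 and -1.27. Txn2 differed by -0.53 and -0.025 and Tkt by -0.45 and -0.03, both near 0 in the combined pair. For members without overlap the sign of both differences is fixed. The astrocyte markers differed by 0.98 in the first set and by 0.92 in the combined pair. The pan-neuronal markers differed by 1.03 and 0.97, with 9 of the 10 genes higher in 15-HETrE libraries. The part of fibroblasts, astrocytes or neurons in the differences of the members was not tested. Gpx8 differed by -3.12 and 1.04, Nqo1 by -2.53 and 3.85, Mgst1 by -1.77 and 3.14, and Txnrd1 by -1.42 and 0.23, opposite in direction. The 9 pericyte and smooth muscle markers lay at 5.72 to 6.49 in vehicle and 4.33 to 5.59 in 15-HETrE libraries, without overlap, 7 of the 9 being lower. They differed by -1.83 in the first set and by -0.21 in the combined pair, and their part in the values of the members was not tested.

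**Figure D4:**
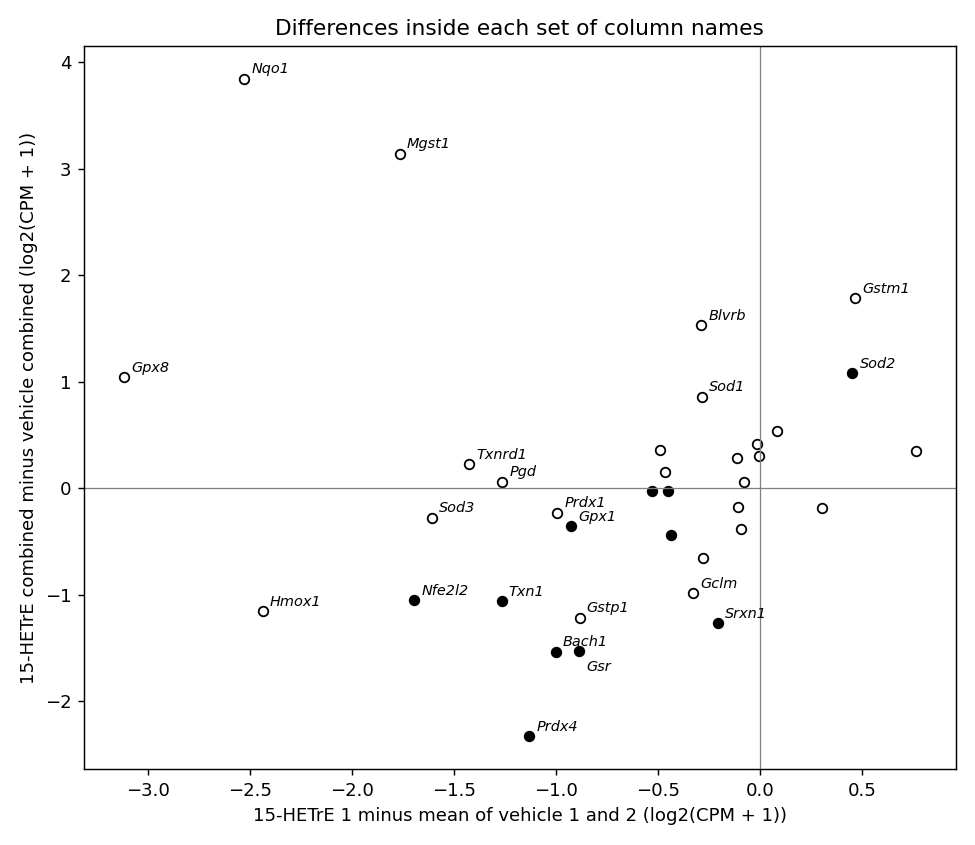
Difference of each tested gene between 15-HETrE 1 and the mean of vehicle 1 and 2 (horizontal) and between the combined libraries (vertical), in log2(CPM + 1); filled points are genes whose libraries do not overlap between groups, and names are given past 0.8 on either axis. Nfe2l2, Hmox1, Txn1, Gsr, Bach1 and Prdx4 are below 0 on both axes, while Gpx8, Nqo1 and Mgst1 change sign.

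The members were also split by the letters TGACNNNGC in the window of 250 bases before to 50 after the start. The median log2 fold change was -0.40 over the 10 with the letters and -0.23 over the 20 tested members whose windows lacked them. Elements outside the window would not be seen, and 6 members had no window. The split therefore cannot tell genes with the element from genes without it.

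Other genes of the redox network, in 9 lists that hold no member, were read from the same fit. Of 133 tested genes, each counted once, 75 were lower and 58 higher, with a median of -0.17. None passed (limma, smallest adjusted p 0.394), 8 had an unadjusted p under 0.05 (6.02%, against 9.50% of all genes), and 11 were lower without overlap (8.27%, close to the 8.32% of all genes). Among partners and regulators of NRF2, 9 of 14 were lower, with 0 past the threshold. Mafk, a small MAF protein that pairs with NRF2 or BACH1, had 14.0, 25.3 and 63.8 CPM in vehicle, against 7.60, 8.12 and 11.8 CPM in 15-HETrE libraries. Its libraries did not overlap, and vehicle combined was far the highest. Rbx1, of the ligase that degrades NRF2, had 67.2, 62.6 and 65.6 CPM in vehicle, against 47.8, 34.1 and 47.2 CPM in 15-HETrE libraries, a narrow vehicle group above all treated libraries. The log2 fold changes of Mafk and Rbx1 were -1.56 and -0.60 with adjusted p of 0.464 and 0.538 (limma).

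Of 17 other NRF2 targets tested, 9 were lower and 8 higher, and 0 passed. Ftl1, the ferritin light chain, had 213, 217 and 120 CPM in vehicle, against 76.5, 118 and 117 CPM in 15-HETrE libraries, without overlap by a narrow step. Ptgr1, at most 7.06 CPM, had a log2 fold change of -1.65. Cbr1, a carbonyl reductase, had a log2 fold change of 0.71. The libraries of Ptgr1 and Cbr1 overlapped. Of 14 other genes of NADPH supply and the pentose phosphate pathway, 10 were lower and 4 higher, and 0 passed. Mthfd2, the mitochondrial folate enzyme, had 17.8, 21.4 and 34.7 CPM in vehicle, against 6.15, 6.21 and 3.65 CPM in 15-HETrE libraries. Its log2 fold change was -1.99 (unadjusted p 0.00268, adjusted p 0.394, limma). Me3, a mitochondrial malic enzyme, went the other way, with 13.7, 7.78 and 1.08 CPM in vehicle, against 26.4, 16.9 and 23.9 CPM in 15-HETrE libraries. G6pdx, the first enzyme of the pentose phosphate pathway, had 54.4 ± 10.5 and 35.8 ± 1.58 CPM (SD, n = 3 per group), also without overlap. Nadk2 was higher without overlap, with 23.8, 21.7 and 25.2 CPM in vehicle, against 36.0, 25.8 and 95.7 CPM in 15-HETrE libraries. In this list 2 genes were lower and 2 higher without overlap (14.3% each, against 8.32% and 6.84% of all genes).

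Of 26 other glutathione enzymes tested, 15 were lower and 11 higher, and 0 passed. Ggt5, a gamma-glutamyltransferase, had 8.83, 13.0 and 16.2 CPM in vehicle, against 2.46, 0.119 and 4.46 CPM in 15-HETrE libraries. It was the only gene of this list without overlap. Esd had a log2 fold change of -1.33 (unadjusted p 0.0151, adjusted p 0.46, limma), with overlapping libraries. Of 18 other thioredoxin-fold and methionine sulfoxide genes, 12 were lower and 4 of them did not overlap (22.2%, against 8.32% of all genes), among them Sesn2, a sestrin, and Txndc17. The selenoprotein list, whose products include the machinery that Gpx1 and Txnrd1 need, had 6 of 14 lower and a median of 0.10. Heme synthesis and breakdown had 3 of 11 lower and a median of 0.08, so Hmox1 was not matched by Hmox2, at a log2 fold change of 0.36. Sources of reactive oxygen had 5 of 11 lower. Nox4, an NADPH oxidase, was found in vehicle 1 and 2 alone, at 7.06 and 14.4 CPM, the libraries where fibroblast markers were highest. It had 0 reads in 15-HETrE unnumbered, where the fibroblast markers without Pdgfra summed to 1895 CPM. The part of fibroblasts in the level of Nox4 was not tested. Among other redox proteins 6 of 10 were lower, and the metallothionein Mt2 had 69.5 ± 16.6 and 37.4 ± 27.3 CPM (SD, n = 3 per group) with overlapping libraries. None of the genes in these last 5 lists passed (limma).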

How the data were processed

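The authors named Trimmomatic, HISAT2, featureCounts, edgeR and mm10 in the submitters' processing notes; for versions, settings, annotation and strand handling no source used here gives details. The deposited values are a signal scaled by the authors as CPM with a factor per library, since column sums run from 960982 to 1080354. In each column 100% of values are whole multiples of the smallest one within 1e-04 reads, so reads were recovered. The test planned for CPM was applied to these scaled values. Columns were assigned by name; 0 other columns exist.

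Symbols with a mean of 1 CPM or more were kept (14523). log2(CPM + 1) was fitted by limma 3.58.1 (R 4.3.3) with group as the only term and a mean-variance trend, two-sided, adjusted by Benjamini-Hochberg over all of them. Fold changes on this scale understate those of low genes. Alternatives included edgeR 4.0.16 and DESeq2 1.42.0 on recovered reads. The script was tested on simulated data. Members and lists were chosen with earlier results of these data known. Values in every library are given for members with an unadjusted p under 0.05, no overlap or the 2 highest means of a role. Genes named from the other lists are among the 4 of their list with the smallest p, but not all of these are named. Positions and exon lengths are from GENCODE M21 (GRCm38); promoters are from RefSeq. Exons of 8 members, Keap1, Gclm, Gss, Gstm5, Prdx2, Prdx5, Tkt and Me1, overlap another annotated gene, and Txn1, Prdx1, Prdx6 and the Gstm and Gstp genes have near copies whose reads the counting could split.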

Additional observations from a re-analysis of the deposited data

How the results depend on the processing

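Over all genes, 2425 passed with library weights, 204 without both combined libraries, 8 with a batch term for the prefix and 165 in DESeq2, and 0 to 110 when each library was left out, 110 without vehicle combined; the cause was not tested. Among the members, 13 of 36 passed with library weights, all lower. That setting called genes broadly, 2425 of 14523, of which 1366 were lower and 1059 higher. Of the members, 1 (Gpx8) passed without both combined libraries, and 0 to 1 when each library was left out. The members' median was -0.43 to -0.29 when each library was left out and stayed under 0 in all alternatives run. The median over all genes was not computed for these alternatives. Of 718 single-gene values under alternatives, 658 kept direction and call, 15 became calls and 45 changed direction, in 13 genes. With library weights Nqo1 was -1.79, Blvrb -0.14, Gss -0.42, Mgst1 -1.40, Sod1 -0.11 and Cat -0.05. Without both combined libraries Nqo1 was -1.04, Gclm 0.07, Gss -0.11, Mgst1 -1.43, Sod1 -0.17, Cat -0.11, Taldo1 0.19 and Me1 -0.18. Mgst1 was -0.07 at a pseudocount of 5 and -0.11 with quantile normalization. With the batch term Gss was -0.13 and Prdx6 0.06. In edgeR and DESeq2 Gsta4 was -0.06 in both, Mgst1 -0.29 and -0.25, and Taldo1 0.06 in both. Leaving out each library gave Nqo1 -0.40 to 1.65, Blvrb -0.05 to 1.07, Gclc -0.30 to 0.09, Gss -0.11 to 0.28, Gsta4 -0.42 to 0.36, Gstm5 -0.11 to 0.63, Mgst1 -0.93 to 0.65, Prdx6 -0.96 to 0.29, Sod1 -0.16 to 0.48, Cat -0.15 to 0.17, Taldo1 -0.54 to 0.34 and Me1 -0.24 to 0.34. Within these ranges the changes of direction also included Taldo1 at 0.08 without vehicle 2, Gss at -0.03 and Prdx6 at 0.13 without vehicle combined, and Gss at -0.03, Gsta4 at -0.10 and Mgst1 at -0.41 without 15-HETrE combined. No paired analysis was possible because the columns of both groups share only replicate number 1. The prefix entered as a batch term instead. Because 15-HETrE unnumbered alone carries its prefix, that library did not add to the fold changes with the batch term. A gene with no read in vehicle combined may stand at up to 0.540 CPM, so low members such as Nqo1, Blvrb and Mgst1 are not resolved there.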
